A study of Mus musculus with 10 samples.

Results

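The genes described here are 8 genes of goblet cell mucus (Muc2, Fcgbp, Clca1, Zg16, Tff3, Spink4, Agr2 and Spdef) and the 2 guanylin genes (Guca2a and Guca2b), taken by gene symbol from a table of 24368 genes, in which all 10 were present. The study asked what HuR does in fat absorption by the gut, using RNA-seq of the proximal jejunum of 10 mice with 1 library each. Of these, 5 were WT and 5 were HuR cKO, which carry a conditional deletion of HuR in the epithelium of the intestine; the WT mice were littermates. HuR is the RNA-binding protein encoded by Elavl1. The Cre driver, the deleted exons, strain, age, sex, diet and time of collection are not stated in the sources used. All 10 genes passed the filter on low values, a mean of at least 10 over the libraries.

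Goblet cells are secretory cells of the intestinal epithelium that release a gel built on the mucin MUC2, a large and heavily glycosylated protein that is folded and linked by disulfide bonds before it is stored in granules. Other secreted proteins join this gel or process it, and a lineage programme that includes the transcription factor SPDEF drives goblet cell maturation. Guanylin and uroguanylin are small peptides that are released into the gut lumen and bind guanylate cyclase C on enterocytes, which raises cyclic GMP and promotes secretion of chloride, bicarbonate and water. Guanylin (Guca2a) is best known from goblet and other cells of the lower gut, and uroguanylin (Guca2b) from the upper small intestine.

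Values are normalised reads, that is, counts of reads over the size factor of their library. The libraries held between 16063987 and 18927440 recovered reads. Their sums of normalised reads differed more, from 13417100 in cKO 3 to 20427100 in cKO 1. The order of libraries given below for a gene therefore depends on the size factors. Elavl1 itself had 695, 632, 630.5, 663 and 709 normalised reads in WT 1, 3, 4, 5 and 6, and 725, 639, 628, 619 and 556 in cKO 1 to 5, so that the whole-gene count did not separate the groups (limma adjusted p = 0.798) and does not check the deletion; directions below follow the labels. Libraries cKO 3 and cKO 5 stood apart in the clock gene Per2, at 12.7 and 16.03 against 342 to 749 in the other 8. Library cKO 1 had the highest share of mitochondrial reads, 9.48% against 2.69% to 6.09% elsewhere. In whole tissue, fewer cells of a type and less RNA per cell cannot be told apart.

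None of the 10 genes passed the test between WT and cKO over all genes. The balance between the guanylins differed in a test of their ratio alone, without adjustment for other gene pairs. Per kb of gene, uroguanylin RNA was 16.8 ± 2.52 times guanylin RNA in WT and 6.37 ± 3.85 times in cKO (ratio of normalised reads per kb, SD, n = 5 each), with no overlap between the groups. How often other gene pairs show no overlap was not computed, and 4.87% of single genes tested showed no overlap. Gucy2c, which encodes the receptor of both peptides, fell 1.73-fold (limma adjusted p = 0.0450), although that call did not hold under most alternatives. Muc2 was below the lowest WT value in 4 of the 5 cKO libraries and above the highest WT value in the other, cKO 1.

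In the limma fit, 186 of 14062 genes passed an adjusted p of 0.05, or 1.32% (0.441% higher and 0.882% lower in cKO), and 0 of the 10 goblet and guanylin genes did. At an unadjusted p under 0.05 there was 1 of 10, Guca2b, where 18.6% of all genes tested lay. The edgeR and DESeq2 tests on recovered reads also called 0 of the 10. The groups overlapped for every one of the 10 genes, while 4.87% of all genes tested showed no overlap. Fitted levels were lower in cKO for 8 of the 10 and higher for 2, with a median log2 difference of -0.15, against 0.010 and 49.0% lower over all genes tested. That median was -0.29 without cKO 1, -0.089 without cKO 3, -0.013 without cKO 3 and cKO 5, -0.050 in edgeR with library totals and -0.047 with totals free of mitochondrial and top genes. The 95% interval of the difference spanned 0 for 9 of the 10 genes. On simulated counts limma recovered 4.4% of 1.5-fold and 42.4% of 2-fold changes, so changes of that size could be missed.

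**Figure D1:**
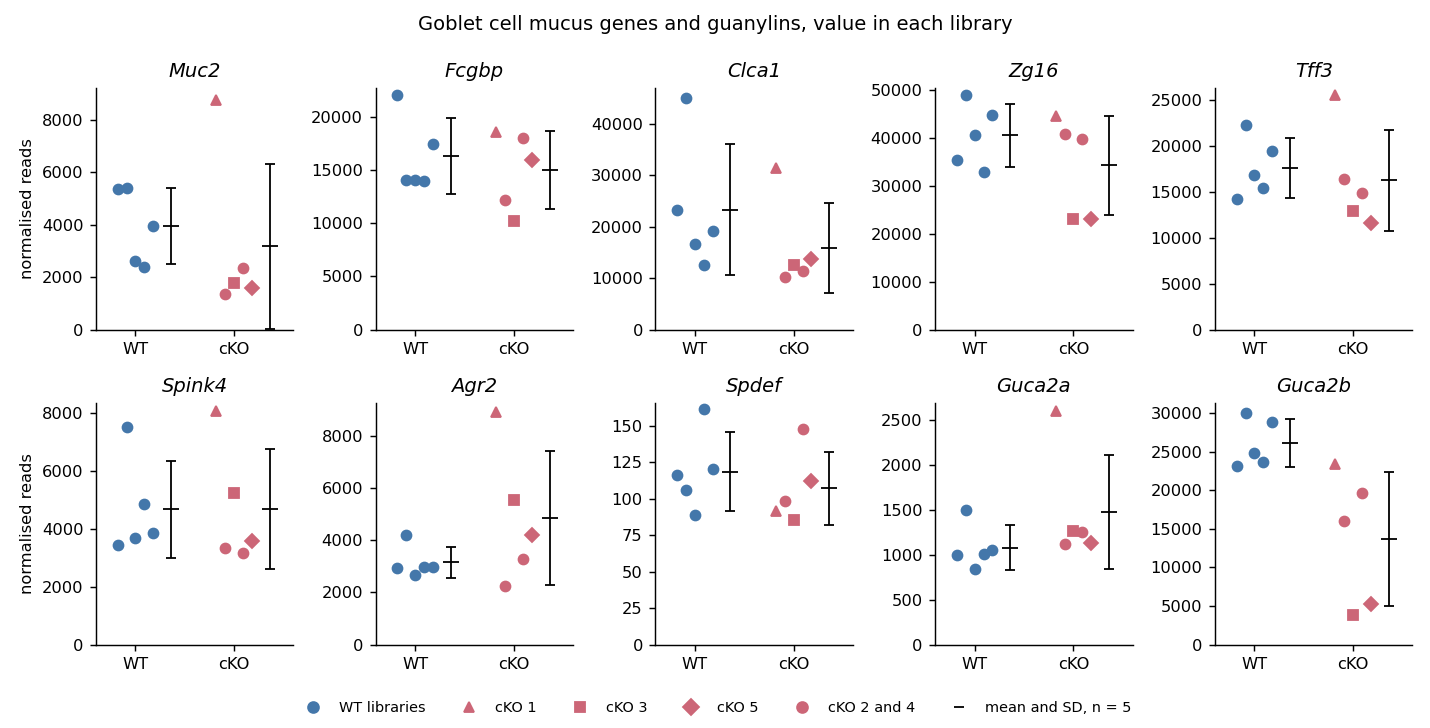
Normalised reads (y axes, linear from 0) of the 10 genes in each library, with WT at left and cKO at right in each panel; marker shapes single out cKO 1, cKO 3 and cKO 5, and the bar is the mean with SD (n = 5). cKO 1 is the highest of all 10 libraries for 5 genes, and the lowest Guca2b values, 3858 and 5247, are those of cKO 3 and cKO 5.

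HuR binds U-rich and AU-rich stretches, many of them in 3' untranslated regions, so the annotated 3' ends of the 10 messenger RNAs were searched for the letters ATTTA and TTTTT on the sense strand (longest 3' end of a complete coding transcript per gene, GENCODE M21, GRCm38). ATTTA was present in Muc2 (1 match in 153 bases) and Clca1 (2 matches in 882 bases), where 19.6% and 69.8% of 3' ends within 10% of the same length hold it. TTTTT was present in Clca1 (3 overlapping matches) and Agr2 (2 overlapping matches in 186 bases), where 81.8% and 37.1% of 3' ends of similar length hold it. The other 7 genes, Guca2a and Guca2b among them, held neither in 3' ends of 93 to 516 bases. A match is a description of the letters and not a bound site. The matches are shown with 12 bases on each side, 5′ to 3′ as DNA letters, with the searched letters in capitals, since these are the stretches of the mucus genes nearest to the letters known for HuR.
Muc2 3' end from base 82: ttctctgcacatATTTAttttcggagttt
Clca1 3' end from base 310: gcctaccaaactATTTAaatacaagagtt
Clca1 3' end from base 337: ttctggtttcttATTTAggaccttggact
Clca1 3' end from base 586: tatttcataatcTTTTTttacaaatattc
Agr2 3' end from base 78: acaacagatataTTTTTtaaacacccaca

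Muc2 (ENSMUSG00000025515, chromosome 7, 141690340 to 141754693, mm10) encodes the gel-forming mucin. Its normalised reads were 5357, 5394, 2618, 2386 and 3953 in WT 1, 3, 4, 5 and 6, and 8759, 1377, 1772, 2358 and 1598 in cKO 1, 2, 3, 4 and 5. All cKO libraries but cKO 1 thus lay below every WT library, and cKO 1 lay above every one. The mean was 3942 ± 1439 for the WT group and 3173 ± 3144 for the cKO group (SD, n = 5 each), and the log2 difference was -0.63 with a 95% interval of -1.67 to 0.41 (limma adjusted p = 0.503). Without cKO 1 the cKO mean was 1776 ± 420.1 (SD, n = 4), the log2 difference was -1.10 and the limma adjusted p = 0.0614. It was -0.43 without cKO 2 and -0.29 without cKO 3 and cKO 5 (limma adjusted p = 0.669 and 0.872), -0.32 and -0.34 in edgeR with TMM factors and with library totals (adjusted p = 0.775 and 0.726), and -0.31 in DESeq2 (adjusted p = 0.817).

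Fcgbp and Clca1 encode large secreted proteins of the same gel; CLCA1 is a mucus protease. Fcgbp (ENSMUSG00000047730, chromosome 7, 28071236 to 28120862) stood at 22058, 14019, 14078, 13943 and 17381 in WT 1, 3, 4, 5 and 6, and at 18564, 12193, 10176, 17995 and 15952 in cKO 1 to 5. The ranges overlapped widely, and the log2 difference was -0.13 (95% interval -0.59 to 0.32, limma adjusted p = 0.770), and -0.22 to -0.0044 over 21 alternatives. Clca1 (ENSMUSG00000028255, chromosome 3, 145003817 to 145032776) stood at 23202, 45059, 16631, 12654 and 19144 in WT, in the same library order, and at 31456, 10191, 12529.8, 11399 and 13841 in cKO. For Clca1, WT 3 and cKO 1 were the high libraries of their groups, and 3 cKO values were below the lowest WT value. Its log2 difference was -0.55 (95% interval -1.29 to 0.20, limma adjusted p = 0.415), with -0.83 without cKO 1 and -0.27 without WT 3 (limma adjusted p = 0.172 and 0.683).

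Zg16, which encodes a mucus lectin that binds bacterial cell walls, had the most normalised reads of the 10 genes. The Zg16 values (ENSMUSG00000049350, chromosome 7, 127050156 to 127087328) were 35366, 49084, 40639, 32921 and 44852 in WT 1, 3, 4, 5 and 6, and 44604, 40877, 23174, 39891 and 23053 in cKO 1 to 5. Only cKO 3 and cKO 5 fell outside the WT range, both below it. The log2 difference was -0.28 (95% interval -0.77 to 0.21, limma adjusted p = 0.528), and it turned to 0.057 without cKO 3 and cKO 5. The gene Gm44939 lies within Zg16 on the other strand; it had a mean of 0.849 normalised reads in WT and 1.06 in cKO.

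Tff3 and Spink4 encode small secreted peptides, a trefoil factor of epithelial repair and a protein of the Kazal-type protease inhibitor family. Tff3 (ENSMUSG00000024029, chromosome 17, 31125306 to 31129646) had 14222, 22312, 16827, 15417 and 19439 normalised reads in WT 1, 3, 4, 5 and 6, and 25566, 16377, 12887, 14928 and 11660.2 in cKO 1 to 5. In normalised reads the cKO values reached beyond the WT range on both sides, with cKO 1 above it and cKO 3 and cKO 5 below it. The largest and smallest sums of normalised reads over all genes were also those of cKO 1 and cKO 3. The log2 difference was -0.15 (95% interval -0.62 to 0.32, limma adjusted p = 0.744); it was -0.33 without cKO 1 and turned to 0.081 without cKO 3 and cKO 5. Spink4 (ENSMUSG00000028415, chromosome 4, 40920052 to 40931395) had 3441, 7491, 3679.7, 4856 and 3856 in WT and 8058, 3342, 5231, 3164 and 3589.6 in cKO. The Spink4 means were 4665 ± 1669 and 4677 ± 2061 (SD, n = 5 each), and the log2 difference of -0.030 (95% interval -0.61 to 0.55, limma adjusted p = 0.963) changed sign under 11 of 21 alternatives.

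Agr2 encodes a protein disulfide isomerase of the endoplasmic reticulum that is needed to make MUC2. Agr2 values (ENSMUSG00000020581, chromosome 12, 35992907 to 36004087) were 2946, 4199, 2679, 2977 and 2975 in WT 1, 3, 4, 5 and 6, and 8933, 2263, 5549, 3302 and 4215 in cKO 1 to 5. Libraries cKO 1, cKO 3 and cKO 5 lay above every WT library and cKO 2 below every one. The log2 difference was 0.48 (95% interval -0.14 to 1.10, limma adjusted p = 0.390), and 0.22 without cKO 1 (limma adjusted p = 0.653); its sign was the same in all 21 alternatives. Agr2 and Muc2 therefore had fitted differences of opposite sign. Spdef, the ETS-family transcription factor of goblet cell maturation, was low throughout (ENSMUSG00000024215, chromosome 17, 27714352 to 27728955). It had 117, 106, 88.7, 162 and 120.2 normalised reads in WT and 91.6, 98.2, 85.6, 148 and 112 in cKO, with 4 of the 5 cKO values inside the WT range (log2 difference -0.15, 95% interval -0.59 to 0.30, limma adjusted p = 0.743; -0.27 to -0.029 over 21 alternatives). Unlike most of the mucus genes, Spdef was not high in cKO 1.

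**Figure D2:**
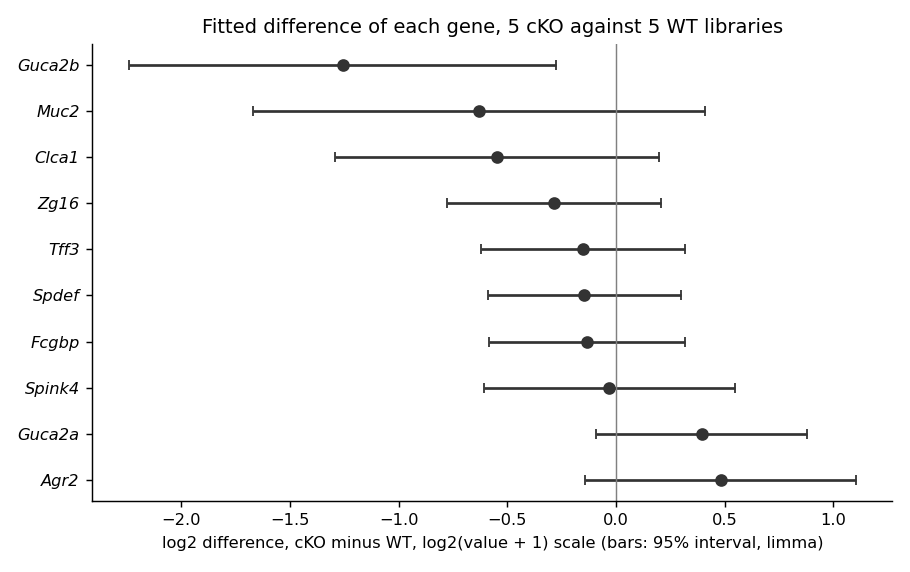
Log2 difference (x axis, cKO minus WT, on the log2(value + 1) scale) of each gene, with bars for the 95% interval of the limma fit over 5 WT and 5 cKO libraries. The points run from -1.26 for Guca2b to 0.48 for Agr2, and the Guca2b interval, -2.24 to -0.27, is the one that does not span 0.

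In normalised reads, library cKO 1 was the highest of all 10 libraries for Muc2, Tff3, Spink4, Agr2 and Guca2a. Its sum of normalised reads was also the largest, at 20427100 against 13417100 to 18387400 elsewhere. The order of libraries after scaling to these sums was not computed. Against the highest of the other 4 cKO libraries, cKO 1 held 3.71 times the Muc2 reads and 2.27 times the Clca1 reads. It held 2.05 times the Guca2a reads and 1.61 times the Agr2 reads. The same ratio was 1.03 for Fcgbp and 0.618 for Spdef. Summed levels of 8 Paneth cell markers were also highest in cKO 1, at 27611 normalised reads, against 3174 to 19666 in WT and 3592 to 12734 in the other cKO libraries. Lyz1 and Defa24 held 11373 and 8876 of the cKO 1 reads. Lyz1, Defa30, Defa17 and Pla2g2a were highest in cKO 1. Defa24, Mmp7, Itln1 and Ang4 were instead highest in WT 4 (9429), WT 5 (456), WT 3 (3857) and WT 3 (6814). Summed levels of 8 proliferation genes were 3157 in cKO 1, against 816 to 1562 in WT and 796 to 2131 in the other cKO libraries. The 8 enterocyte genes did not move as one in cKO 1: Fabp1, Fabp2 and Sis were above every WT library there, Vil1, Alpi, Apoa4 and Lct below every one, and Apoa1 within the WT range. The part of these levels in the goblet gene values was not tested. Genes of gastric mucous cells were near 0: Muc5ac, Tff2, Gkn1 and Gkn2 together gave at most 5.99 in WT and 26.6 in cKO. Tff2 was at 0 in every cKO library. Muc6 and Tff1, also on that list, were not among the genes of the data. A list of 6 pancreas genes summed to 104 to 212 normalised reads over the 10 libraries, nearly all from Cela1 (means of 142 in WT and 138 in cKO); Cpa1 was at 0 in every library and the other 4 reached at most 10.2.

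The ratio of the guanylin genes differs between the groups, so the 250 bases before their RefSeq starts (GRCm38.p6) are shown, 5′ to 3′ on the gene's own strand. They were searched on both strands for TGTTTAC (a FOX factor motif), GTTAAT (the core of the HNF1 motif), CACGTG (E-box), TTATGTAA (D-box), TGTTTGC (a second FOX form), the full palindromic HNF1 motif, TTTATGG (CDX), TATAAA (a core promoter element), CAGCTG (an E-box form bound by ATOH1), ACCGGAAGT (ETS) and CAAAGTCCA (HNF4). GTTAAT is contained in the full HNF1 motif. Guca2a held TGTTTAC at -34 from its RefSeq start, which 3.17% of 32851 promoters hold in the same window, and Guca2b held GTTAAT at -33, which 6.43% hold. The GENCODE M21 models of Guca2a and Guca2b begin inside these windows, at 119637704 and 119658954. The last bases shown for each gene therefore lie within its GENCODE model. Guca2a also held CAGCTG at -206, as 13.0% of promoters do, and none of the other motifs matched either gene. Capitals mark the first 2 matches, which are letters and not sites of binding.
Guca2a, chr4:119637482-119637731, plus strand: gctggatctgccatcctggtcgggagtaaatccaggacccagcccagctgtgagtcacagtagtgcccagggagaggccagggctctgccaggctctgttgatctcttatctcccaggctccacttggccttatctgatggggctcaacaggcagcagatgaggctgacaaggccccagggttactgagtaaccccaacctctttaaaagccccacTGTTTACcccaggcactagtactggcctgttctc
Guca2b, chr4:119658946-119659195, minus strand: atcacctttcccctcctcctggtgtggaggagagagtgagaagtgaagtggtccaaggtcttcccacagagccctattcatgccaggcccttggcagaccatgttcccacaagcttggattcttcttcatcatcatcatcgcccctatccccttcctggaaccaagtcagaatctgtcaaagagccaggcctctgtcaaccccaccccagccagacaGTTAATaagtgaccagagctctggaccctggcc

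Both genes are neighbours on chromosome 4, with 17135 bases between them and opposite strands. Guca2b (ENSMUSG00000032978, 119656607 to 119658954) encodes uroguanylin and had 23091, 29981, 24820.5, 23669 and 28854 normalised reads in WT 1, 3, 4, 5 and 6, and 23443, 16029, 3858, 19689.8 and 5247 in cKO 1 to 5. WT values were close together, with a highest to lowest ratio of 1.30, whereas this ratio was 6.08 in cKO, where 4 libraries were below the WT range and cKO 1 was at its lower end. The log2 difference was -1.26 ± 0.45 (SE; 95% interval -2.24 to -0.27), which missed the threshold (limma adjusted p = 0.168; adjusted p of 0.0943 to 0.386 over 21 alternatives). Without cKO 3 and cKO 5, the libraries with low Per2, it was -0.41 (limma adjusted p = 0.386).

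Guca2a (ENSMUSG00000023247, 119637704 to 119639471) encodes guanylin and had 994, 1503, 845, 1009.5 and 1059 normalised reads in WT and 2604, 1126, 1269, 1251 and 1136 in cKO, in the same library orders. Each cKO library but cKO 1 lay between the second highest and the highest WT value, and cKO 1 lay above all. The log2 difference was 0.39 (95% interval -0.09 to 0.88, limma adjusted p = 0.367), and 0.17 without cKO 1 (limma adjusted p = 0.627); it was positive in all 21 alternatives.

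The ratio of Guca2b to Guca2a within a library, taken per kb, does not depend on how libraries are scaled. It was 15.9, 13.6, 20.1, 16.01 and 18.6 in WT 1, 3, 4, 5 and 6, and 6.15, 9.72, 2.08, 10.7 and 3.15 in cKO 1 to 5. Every cKO ratio was below every WT ratio, the closest pair being cKO 4 and WT 3. The mean log2 ratio was 4.06 ± 0.22 among WT and 2.41 ± 1.03 among cKO libraries (SD, n = 5 each), a difference of -1.65 (two-sided exact permutation p = 0.00794, the smallest that 252 splits allow). That p was not adjusted, and the share of other gene pairs with such a difference was not computed. The difference was -0.95 without cKO 3 and cKO 5, again with no overlap (two-sided exact permutation p = 0.0179), and ran from -1.91 to -1.31 with 1 library left out at a time.

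**Figure D3:**
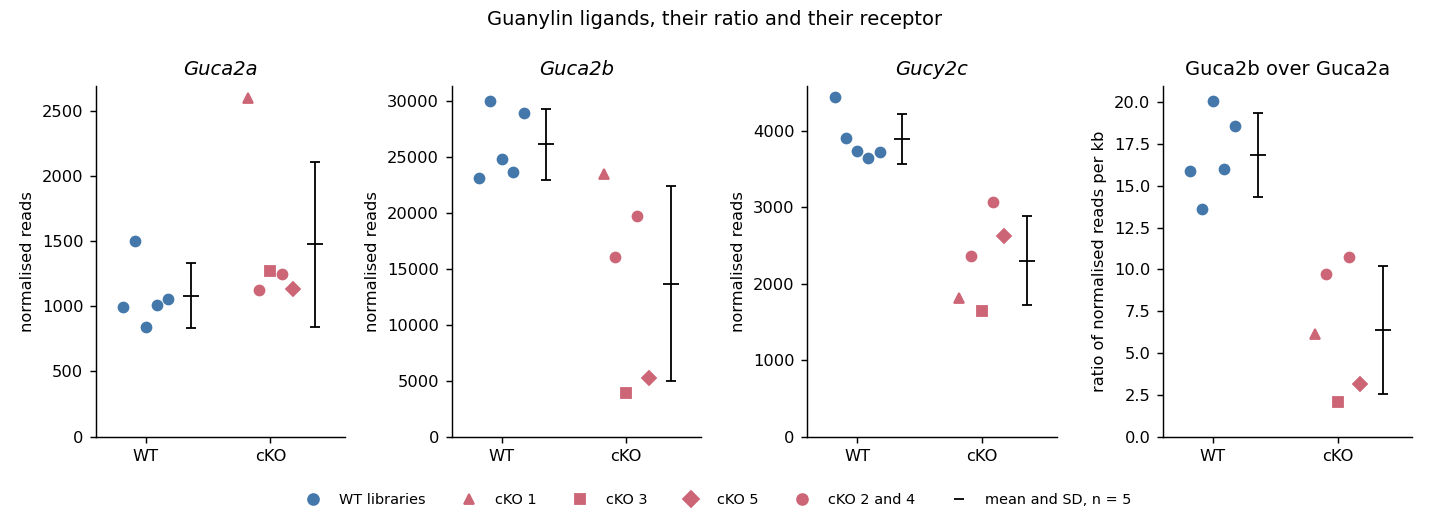
Normalised reads of Guca2a, Guca2b and their receptor gene Gucy2c, and the ratio of Guca2b to Guca2a reads per kb, in each library (y axes linear from 0; bar: mean with SD, n = 5). The groups do not overlap for Gucy2c or for the ratio, which is at least 13.6 in WT and at most 10.7 in cKO, and they overlap for each ligand alone.

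Gucy2c (ENSMUSG00000042638, chromosome 6, 136697284 to 136781765) encodes guanylate cyclase C. It had 4442, 3910.5, 3737, 3639 and 3725 normalised reads in WT 1, 3, 4, 5 and 6, and 1816, 2357, 1638, 3062 and 2617 in cKO 1 to 5. Every cKO value was below every WT value, and cKO 1, the library with the highest Guca2a, had the second lowest Gucy2c. Gucy2c fell from 3891 ± 323 to 2298 ± 583 (SD, n = 5 each; log2 difference -0.79 ± 0.18 SE, limma adjusted p = 0.0450). The direction was the same in all 21 alternatives, but the call was lost in 16 of them, including the removal of any single library other than cKO 4 (log2 differences of -0.85 to -0.68, limma adjusted p of 0.0568 to 0.111). Without cKO 3 and cKO 5 the log2 difference was -0.72 (limma adjusted p = 0.130). Gucy2c is expressed in enterocytes, and of 8 enterocyte genes 7 were fitted lower in cKO, with a median log2 difference of -0.40 and 0 past the limma test. Their sums were 892130 to 1063730 normalised reads in WT and 632852 to 1323950 in cKO. Apoa4, an apolipoprotein gene, had -0.86 with no overlap between the groups (limma adjusted p = 0.0774), and Alpi, Lct and Apoa1 had -0.72, -0.63 and -0.63 (limma adjusted p = 0.177, 0.180 and 0.245). Differences were smaller for Fabp1, Vil1 and Sis, at -0.17, -0.060 and -0.0088, and Fabp2 had 0.31 (limma adjusted p = 0.761, 0.920, 0.993 and 0.547). The part of these levels in the Gucy2c result was not tested.

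Of 12 genes around guanylin signalling, Gucy2c was the 1 that fell and none rose, where 0.882% of all genes tested fell and 0.441% rose. Fitted levels were lower for 9 of the 12 and their median log2 difference was -0.25. Cftr, the chloride channel that opens downstream of cyclic GMP, had 361 ± 172 normalised reads among WT and 347 ± 184 among cKO libraries (SD, n = 5 each; log2 difference -0.054, limma adjusted p = 0.949), and its sign turned in 6 of 21 alternatives. Among genes that act in the making of goblet cells and mucus, 0 of 17 other goblet cell genes tested passed (median log2 difference 0.039), 0 of 15 genes of mucin glycosylation (-0.012), 0 of 16 secretory lineage regulators (-0.13), 0 of 5 membrane mucin and mucin-like genes (-0.49) and 0 of 6 genes of type 2 and related cytokine signalling (-0.39).

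The genes with the smallest p-values in those lists are given as values only. Bcas1, a goblet cell gene, had a log2 difference of 0.51 and Ramp1, a receptor accessory protein gene, one of -0.47 (limma adjusted p = 0.195 and 0.289). Gcnt1, which encodes a branching enzyme of mucin-type glycans, had 327 ± 135 normalised reads among WT and 652 ± 211 among cKO libraries (SD, n = 5 each; log2 difference 1.02, limma adjusted p = 0.0686), and it passed in 4 of 21 alternatives: without WT 5 (limma adjusted p = 0.0327), in DESeq2 (0.0154), in edgeR with library totals (0.0384) and with totals free of mitochondrial and top genes (0.0275). B4galnt2, a glycosyltransferase gene, had -0.53 (limma adjusted p = 0.171). Creb3l1, a secretory cell transcription factor gene, had 0.64 and the Notch ligand gene Dll1 -0.64 (limma adjusted p = 0.147 and 0.184). The membrane mucin genes Muc4 and Muc3a had 0.77 and -0.95 (limma adjusted p = 0.227 and 0.261), and the cytokine receptor genes Il17rb and Il13ra1 had -1.15 and 0.46 (limma adjusted p = 0.120 and 0.168). Il17rb passed in DESeq2 (adjusted p = 0.0400).

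Of all genes tested, 0.441% rose. Among markers of other cell types, 2 of 8 enteroendocrine genes rose: the granule protein gene Chga, by 0.80 on the log2 scale, and the neurotensin gene Nts, by 1.05 (limma adjusted p = 0.0410 and 0.0417). Fitted levels were higher for 5 of these 8 genes and lower for 3, with a median log2 difference of 0.18. The hormone genes Gip and Cck had -0.62 and -0.31 (limma adjusted p = 0.185 and 0.253). In the fibroblast list, 2 of 6 rose, Col1a1 by 1.02 and Col3a1 by 0.75, both of which encode fibrillar collagen chains (limma adjusted p = 0.0426 and 0.0357). These calls were lost in 10, 9, 7 and 6 of 21 alternatives for Chga, Nts, Col1a1 and Col3a1. None of 8 Paneth, 8 tuft, 8 enterocyte, 8 proliferation, 8 general epithelial, 6 smooth muscle or 6 immune genes passed, with median log2 differences of 0.60, -0.60, -0.40, 0.62, -0.19, 0.14 and -0.059. The part of these levels in the values of the goblet and guanylin genes was not tested.

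Levels were compared between genes after division by gene length. In WT, normalised reads per kb were 35787 ± 6600.2 for Tff3, 32277 ± 5283 for Zg16 and 29980.3 ± 3600.3 for Guca2b (SD, n = 5), and these 3 overlapped. All 3 lay above Spink4 (9779 ± 3499.6 per kb), which overlapped with Clca1 (6179 ± 3371 per kb). Agr2, Guca2a and Fcgbp followed at 2444 ± 462, 1822 ± 418 and 1552 ± 337 per kb, each overlapping the next, then Muc2 at 553 ± 202 and Spdef at 51.5 ± 11.7 per kb, both apart from their neighbours. The order of the means in cKO was the same. In cKO, however, Guca2b ranged from 4434 to 26946 per kb and overlapped with Spink4, and Muc2 ranged from 193 to 1229 per kb and overlapped with Fcgbp.

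**Figure D4:**
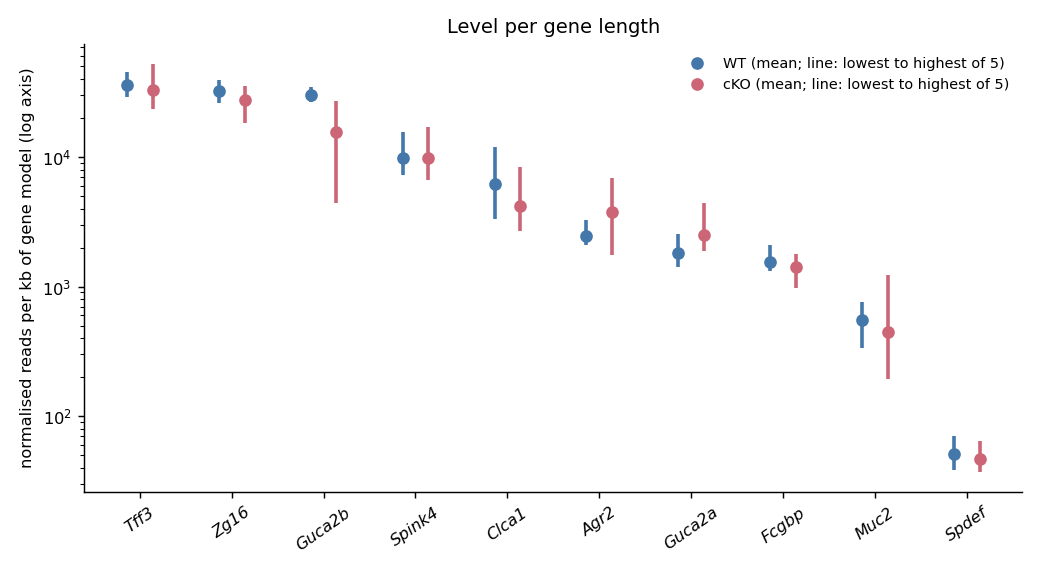
Normalised reads per kb of gene model (y axis, log scale) of the 10 genes, ordered by the WT mean; points are means and lines run from the lowest to the highest of 5 libraries. The WT line of Guca2b, 26541 to 34460.5 per kb, is the shortest of the upper 3, and its cKO line reaches down to 4434 per kb.

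As a share of the summed level per kb of the 10 genes, Guca2b made up 22.3% to 26.2% in WT libraries and 17.5%, 18.6%, 6.25%, 22.4% and 9.11% in cKO 1 to 5. Guca2a made up 1.27% to 1.64% in WT and 1.92% to 3.01% in cKO, with no overlap, and Tff3 27.8% to 30.9% in WT and 29.96% to 36.8% in cKO. Agr2 took 1.80% to 2.22% in WT, and 4.50%, 1.77%, 6.06%, 2.53% and 4.93% in cKO 1 to 5. Shares of 1 total move together by construction, and no test was made of them.

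Among the 45 pairs of these genes, 4 had a Pearson correlation over the 10 libraries past a Benjamini-Hochberg adjusted permutation p of 0.05, all positive; the median r was 0.45 and the range -0.37 to 0.91. The share of other gene pairs with such correlations in these libraries was not computed, so the count is a description and not a trait of these genes. All genes of a library also share its size factor, and the part of that scale in these correlations was not tested. Muc2 and Clca1 had r = 0.88 (permutation p = 0.00113, adjusted p = 0.0454) and Spearman's rho = 0.90 (permutation p = 0.00084, adjusted p = 0.0189), and r was 0.89 without WT 3 and cKO 1, the libraries farthest from the median of Muc2. Zg16 and Tff3 had r = 0.84 (permutation p = 0.00273, adjusted p = 0.0454) and rho = 0.92 (permutation p = 0.0005, adjusted p = 0.0189), with r = 0.79 without cKO 3 and cKO 5. Zg16 and Guca2b had r = 0.91 (permutation p = 0.00404, adjusted p = 0.0454) and rho = 0.73 (permutation p = 0.0205, adjusted p = 0.174), but r was 0.37 without cKO 3 and cKO 5, so this relation rests on those libraries. Agr2 and Guca2a had r = 0.86 (permutation p = 0.00376, adjusted p = 0.0454) and rho = 0.81 (permutation p = 0.00725, adjusted p = 0.109), and r was 0.61 without cKO 1 and cKO 3. With each group's mean removed these 4 r values were 0.85, 0.84, 0.93 and 0.83. The count of pairs was 0 without WT 1, WT 4, WT 5, WT 6, cKO 3, cKO 4 or cKO 5, and 1, 2 and 5 without WT 3, cKO 1 and cKO 2.

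Of 8564 other genes with a mean of at least 100, those whose log2 levels over the 10 libraries were most like the mean profile of the 8 mucus genes were Ghitm, Chmp5, H2-Aa, Bcap31 and Atp6v1a, with Pearson's r of 0.95, 0.94, 0.94, 0.94 and 0.94. For the mean profile of the 2 guanylin genes they were H2-Aa, Bcap31, Atp6v1d, Cops4 and Cox6b1, with r of 0.96, 0.95, 0.94, 0.94 and 0.93. Guca2a and Guca2b had r = 0.028 and Spearman's rho = -0.18 with each other, so likeness to their mean need not be likeness to either gene. The genes listed have the highest of many correlations over 10 libraries and are given as a description. In normalised reads, all 8 genes named were highest in cKO 1. H2-Aa had 48043 there and 18224 to 32399.6 in the other libraries, and Ghitm 11285.5 against 7198 to 10045.5. The sum of normalised reads was also largest in cKO 1, at 20427100. The part of the library sums in these correlations was not tested.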

How the data were processed

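RNA-seq libraries of mouse proximal jejunum, 5 WT and 5 cKO, were compared. Per the submitters' processing notes, the tools were CASAVA, HISAT2 2.0.5 on mm10, featureCounts 1.5.0-p3 and DESeq2 1.20.0; the annotation release and strand setting are not stated in the sources used. The deposited signal per gene is a read count divided by 1 size factor per library; each value was a whole multiple of its library's smallest step within 0.001 for 100% of values, and reads were recovered so. Another 2 columns of per-sample values, matching no label, and the authors' own test columns were not used. As in the earlier work on this table, log2(value + 1) of genes with a mean of at least 10 was fitted with limma 3.58.1 (trend, robust; R 4.3.3) on genotype alone, with Benjamini-Hochberg adjustment over all genes. edgeR 4.0.16 and DESeq2 1.42.0 were run on recovered reads as alternatives. On simulated counts (5 against 5, about 13920 genes) limma recovered 42.4% of 2-fold and 91.2% of 4-fold changes, with 4.31% of calls false. Pairs of genes were tested with 100000 permutations. Gene starts and ends of the 10 genes matched GENCODE M21. RefSeq promoters were found for 6 of the 10 genes. Libraries of a group differed beyond counting noise (chi-square over degrees of freedom at least 21.5). The genes and lists were chosen with earlier results of these data known; all 10 genes are given, and of the other pathway lists those past the test or else the 2 with the smallest p, with Gucy2c and Cftr always; marker lists of other cell types are given by counts, sums and genes that passed. Figures used matplotlib 3.10.9.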

Additional observations from a re-analysis of the deposited data

Results flagged for a closer look

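Each group of 5 libraries was checked for a value set apart from the rest by more than Dixon's 95% limit (a gap over 0.71 of the range), in 22 groups of values, where chance marks about 1 in 20. In cKO 1, Muc2 (8759 normalised reads), Clca1 (31456) and Guca2a (2604) stood apart from the other 4 cKO libraries. In WT 3, Agr2 (4199) stood apart from the other 4 WT libraries.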

How the results depend on the processing

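None of the 10 genes passed under any of the 21 alternatives. The count of all genes called, 186, was 750 with DESeq2, 56 without cKO 3 and cKO 5, 88 in the 8 libraries with shared numbers, and 30 (without WT 4) to 611 (without cKO 4) with 1 library left out. Of the 186, 62 were higher; 86 of 160 were higher with library totals in edgeR and 73 of 160 with totals free of mitochondrial and top genes, where the median of all genes shifted to 0.14 and 0.11. Spink4, at -0.030, turned to 0.0061 and 0.079 (edgeR with TMM factors and with totals), 0.0071 (DESeq2), 0.074 (totals free of mitochondrial and top genes) and 0.014 (8 libraries), and ran from -0.25 to 0.16 with 1 library left out. Without cKO 3 and cKO 5, Zg16 turned to 0.057, Tff3 to 0.081 and Cftr to 0.065. Cftr turned to 0.049 with totals free of mitochondrial and top genes, and ran from -0.32 to 0.16 with 1 library left out. The causes were not tested. Correlated pairs numbered 0 without cKO 3 and cKO 5, and 0 to 5 with 1 library left out. Numbers 1, 3, 4 and 5 occur in both groups. Same-numbered libraries deviated together with r of -0.11 to 0.12, and 1 of 8 correlated best with its own number. With 4 pairs this cannot settle whether a shared number marks a litter or a batch. With the replicate block the gene count was 130, no goblet or guanylin gene was called, Spink4 was 0.014 and the guanylin log2 ratio differed by -1.83 (exact sign-flip p = 0.125, the smallest 4 pairs allow). The labels do not tie mice to litters. The lowest value of the 10 genes was 85.6 normalised reads (Spdef in cKO 3).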

Other observations

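Agr2 and Muc2 reads were compared within libraries after their values were seen, with no test. The ratio of Agr2 to Muc2 reads per kb was 3.04, 4.30, 5.65, 6.89 and 4.15 in WT 1, 3, 4, 5 and 6, and 5.63, 9.07, 17.3, 7.73 and 14.6 in cKO 1 to 5. Of the cKO libraries, cKO 1 lay inside the WT range and the other 4 above it. The highest ratios, in cKO 3 and cKO 5, came in the libraries with low Per2 and low Guca2b. Ang4, an antimicrobial gene of Paneth and goblet cells, spanned 38.9 to 6814 normalised reads in WT and 27.7 to 538 in cKO. Retnlb, a goblet cell gene induced in infection, had 88.6 ± 167 normalised reads among WT and 9.35 ± 5.33 among cKO libraries (SD, n = 5 each). Its log2 difference was -1.48 (limma adjusted p = 0.422), and WT 3, at 388, held most of the WT reads. WT 3 was also the library with the highest Ang4.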
